A study of Mus musculus with 29 samples.

Results

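Among the 11959 genes measured in 3T3-L1 cells differentiating into adipocytes, 127 genes were higher in C70-treated cells than in vehicle-treated cells at each time point sampled, from the start of differentiation to day 7. They were chosen by their measured values: a gene was a member when its mean CPM (counts scaled to the same total in every library) with C70 was at least 1.4 times its mean CPM with vehicle on day 0, day 1, day 2 and day 7, and its mean CPM over all 29 libraries was at least 2. The ratios of C70 to vehicle are therefore given as descriptions, without a test. The rule did not use the course of the same genes in vehicle-treated cells over time, which was tested, or the sequence of their promoters. At day 0 the highest ratio was that of Gli1, the transcription factor that is itself a target of Hedgehog signalling (13.5), followed by Igfbp6, a secreted binding protein for insulin-like growth factors (5.68). At day 1 it was that of the phosphatase Ppef1 (10.2), at day 2 that of Crocc2, a paralog of the ciliary rootlet protein rootletin (28.9), and at day 7 that of the matrix protease Mmp3 (5.63), with Gli1 second on each of these days.

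KDM5 enzymes are histone demethylases that remove methyl groups from lysine 4 of histone H3. The trimethylated form, H3K4me3, marks the promoters of active genes, and KDM5 proteins are known to bind many promoters, in particular at CpG islands, where they lower H3K4me3. C70 (KDM5-C70) is a cell-permeable chemical inhibitor of this enzyme family. 3T3-L1 is a mouse fibroblast line whose confluent cells, called preadipocytes, become lipid-storing adipocytes after a hormonal stimulus. During this change fibroblast and matrix genes are known to be turned off while genes of lipid storage are turned on.

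Cells received 10 µM KDM5-C70 or DMSO vehicle from confluence on day -2 until day 0. Induction then lasted 2 days, with a PPARγ agonist, isobutylmethylxanthine, insulin and dexamethasone. Of these, insulin and dexamethasone were kept in the later medium. Day 0 libraries thus come from treated but not yet induced cells, and day 1, day 2 and day 7 libraries come from cells harvested after the treatment period had ended. The 8 groups held 3 vehicle and 4 C70 libraries on day 0, day 1 and day 2, and 4 vehicle and 4 C70 libraries on day 7. All come from 1 cell line, and since nothing says that replicates were separate cultures, P values measure the spread between these libraries, which may be technical. Library totals ran from 16320275 to 24037170 counts.

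All libraries are labelled as adipocytes, whatever their day. At day 0 the adipocyte hormone gene Adipoq was between 0.192 and 0.420 CPM in the 3 vehicle libraries, and at day 7 between 1166 and 1482 CPM in the 4 vehicle libraries, so the day 0 libraries lacked this defining marker. The summed level of the 10 adipocyte markers measured ran from 1343 to 1462 CPM in vehicle and from 1494 to 1548 CPM with C70 at day 0. At day 1 it ran from 5729 to 6055 CPM in vehicle and from 3430 to 3615 CPM with C70. At day 2 it ran from 24729 to 25823 CPM in vehicle and from 14315 to 15966 CPM with C70, and at day 7 from 26843 to 30928 CPM in vehicle and from 28303 to 31038 CPM with C70. At day 0 most of this sum was Lpl, with means of 1285 CPM in vehicle and 1423 CPM with C70. The 10 markers went both ways at day 0, with a median ratio of 1.13, Pparg at 0.692, Fabp4 at 0.735 and Cebpa at 1.29. The summed level of 10 preadipocyte and fibroblast markers, 2 of which (Thy1 and Ly6a) are members, overlapped between the arms at day 0 (17604 to 18619 CPM in vehicle and 17744 to 19231 CPM with C70) and day 1 (6959 to 7361 CPM and 6834 to 7388 CPM). It ran from 2387 to 2420 CPM in vehicle and from 3539 to 3767 CPM with C70 at day 2, and from 1582 to 2111 CPM in vehicle against 3149 to 3605 CPM with C70 at day 7. The overlap at day 1 joins markers that went both ways. Col1a1, the most abundant of them, had a ratio of 0.755 at day 1, while Vim had 1.16, Dlk1 1.26 and Thy1 2.61. The median ratio of these 10 markers was 1.08 at day 0 and 1.21 at day 1. These are bulk RNA samples, in which a different share of cells of a type and a different amount of RNA per cell cannot be told apart, and the part of either marker shift in the ratios of the members was not tested.

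On single days the ratio threshold was passed by 472 genes before induction (3.95% of the table), by 1008 on day 1 (8.43%), by 1519 on day 2 (12.7%) and by 1103 on day 7 (9.22%). It was passed on all 4 days by 135 genes (1.13%), of which 8 were left out for their low mean CPM, leaving the 127 members. The median ratio of the members was 1.65 on day 0, then 2.28 on day 1, 3.19 on day 2 and 1.90 on day 7, where the median over all genes stayed between 0.957 and 0.998. Day 2 carried the highest ratio for 88 of the 127 members (69.3%, against 33.9% of all genes), day 1 for 22 (17.3%, against 12.7%), day 7 for 12 (9.45%, against 25.9%) and day 0 for 5 (3.94%, against 27.6%). The lowest ratio fell on day 0 for 71 members (55.9%, against 27.3%) and on day 7 for 44 (34.6%, against 28.5%). The rule used these ratios, so nothing is read from the shares. For 110 members every C70 library was above every vehicle library on all 4 days, where 351 genes of the table (2.94%) had that order. The other 17 members had overlapping groups on at least 1 day. At day 1 all 127 were separated, where 2251 of the 11959 genes of the table were. The rule used the same values, so nothing is read from this either. Just inside the threshold, by their lowest ratio, were Dusp3 at 1.40008, Ablim1 at 1.40031 and Mrgpre at 1.40254. Just outside were Gdpd5 at 1.39995, Foxf2 at 1.39892 and Exoc3l4 at 1.3982. For 47 members the lowest ratio was under 1.5, and for 15 it was 2 or more.

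**Figure D1:**
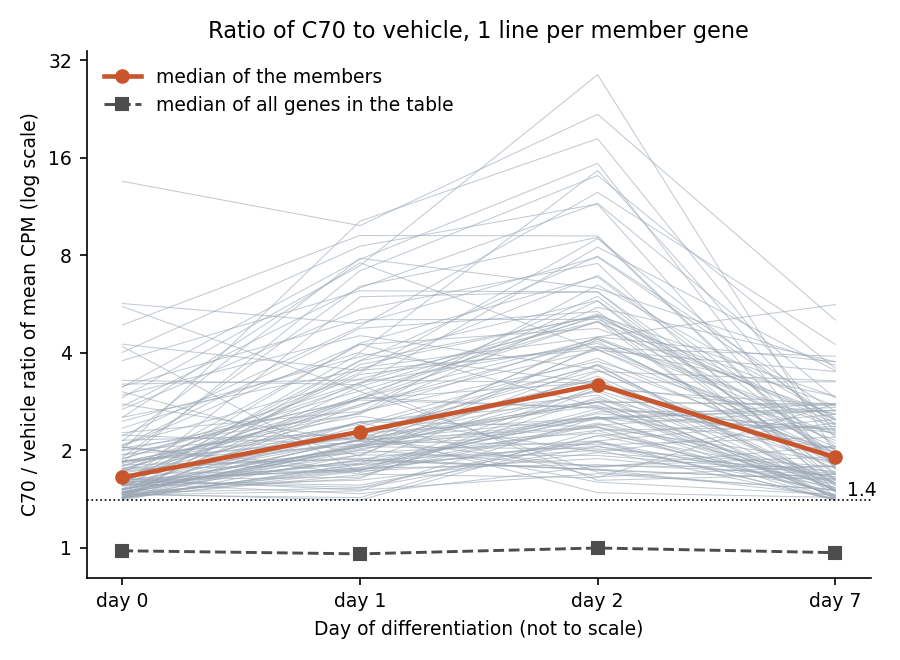
Ratio of mean CPM with C70 to mean CPM with vehicle (log axis) on each of the 4 days, with 1 grey line per member gene, the median of the 127 members and the median of all genes in the table. The members start at 1.4 by the rule (dotted line), and their median is highest at day 2, at 3.19, while the median of all genes stays close to 1.

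Of the 8 members with the highest lowest ratio, Gli1 stood first. Gli1 encodes the zinc finger factor that carries out transcription at the end of the Hedgehog pathway. At day 0 its level was 2.82, 4.05 and 2.55 CPM in vehicle and 41.2, 43.6, 43.97 and 41.1 CPM with C70, a ratio of 13.5 ± 2.02 (SE, n = 3 and 4). At day 1 the vehicle libraries were at 0.839, 0.449 and 1.05 CPM and the C70 libraries between 6.98 and 8.80 CPM. At day 2 vehicle was at 0.364, 0.295 and 0.157 CPM and C70 between 5.27 and 6.93 CPM, and at day 7 vehicle was between 0.584 and 1.10 CPM and C70 between 3.45 and 4.17 CPM. The groups did not overlap on any day, and the C70 level dropped after day 0 along with the vehicle level, so that the ratios of 9.88, 21.8 and 5.05 on days 1, 2 and 7 rest on much lower levels than the ratio at day 0.

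Igfbp6 encodes a binding protein with a preference for IGF-II. Its day 0 level was 9.08, 9.30 and 9.13 CPM in vehicle and 54.8, 48.0, 55.5 and 49.9 CPM with C70. At day 2 it was 6.0005, 5.60 and 5.09 CPM in vehicle and between 41.2 and 46.2 CPM with C70, a ratio of 7.90 ± 0.420. At day 7 the vehicle libraries were at 5.27, 2.02, 2.19 and 2.35 CPM and the C70 libraries at 6.94, 7.33, 7.04 and 8.06 CPM. The first vehicle library of day 7 lay apart from the other 3, and the day 7 ratio of 2.48 has an SE of 0.655.

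Lsp1 encodes an actin-binding protein first described in leukocytes. It was at 24.6, 26.75 and 25.6 CPM in vehicle and 69.0, 72.3, 70.3 and 68.4 CPM with C70 at day 0, and at 3.68, 2.82 and 3.15 CPM in vehicle and 38.4, 36.5, 38.2 and 35.7 CPM with C70 at day 2. The vehicle level was thus much lower at day 2 than at day 0, whereas the C70 level stayed above the day 0 vehicle level. The ratio was 2.73 at day 0 and 11.6 ± 0.928 at day 2.

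Aqp1, a water channel, followed the same course at a higher level. Its vehicle libraries were at 159, 182 and 156 CPM at day 0 and at 18.2, 16.2 and 20.1 CPM at day 2, while its C70 libraries were at 402, 367, 382 and 400 CPM at day 0 and at 291, 246, 255 and 272 CPM at day 2. Its ratio was 14.6 ± 1.07 at day 2 and 2.19 ± 0.301 at day 7, when C70 libraries lay between 47.7 and 74.2 CPM. Col23a1, a transmembrane collagen, was at 23.4, 24.5 and 24.9 CPM in vehicle and between 52.7 and 55.1 CPM with C70 at day 0, and at 1.41, 1.14 and 1.05 CPM in vehicle and 14.7, 15.1, 15.3 and 14.9 CPM with C70 at day 2. In Col23a1, unlike Lsp1 and Aqp1, the C70 level at day 2 was under the vehicle level of day 0.

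Timp4, an inhibitor of matrix metalloproteinases, was higher at day 7 than at day 0 in both arms. Its level was 1.26, 1.19 and 1.249 CPM in vehicle and 3.69, 4.15, 4.48 and 3.20 CPM with C70 at day 0, and it was 8.57, 7.49, 7.32 and 7.05 CPM in vehicle and 18.4, 20.5, 23.3 and 21.3 CPM with C70 at day 7. Draxin, a secreted axon guidance cue that also binds Wnt co-receptors, was highest at day 1 in both arms, at 4.88, 4.34 and 5.71 CPM in vehicle and 12.96, 11.7, 15.2 and 12.6 CPM with C70. Tor4a, of the torsin family of ATPases, was at 4.87, 5.62 and 5.19 CPM in vehicle and between 12.3 and 13.9 CPM with C70 at day 0. Its ratio reached 7.59 at day 1, when vehicle was at 0.937, 0.549 and 0.801 CPM.

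**Figure D2:**
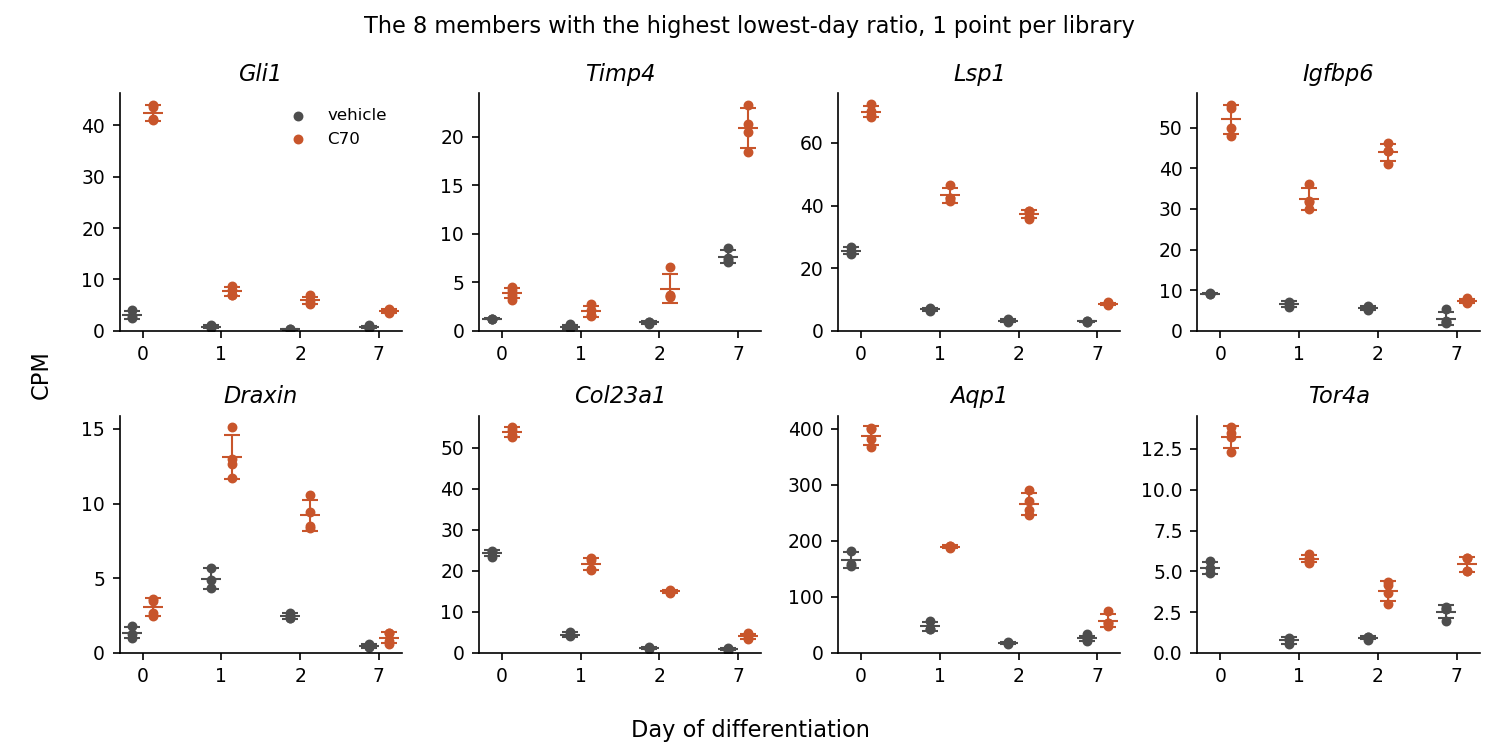
CPM in each library for the 8 members with the highest lowest ratio, by day, for vehicle (grey) and C70 (orange), with the mean (horizontal mark) and SD. C70 points lie above vehicle points on all 4 days, and Timp4 is the gene among these 8 whose vehicle level is highest at day 7.

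The promoters of 6 of these 8 genes are printed because KDM5 proteins act at start sites. The sequences are RefSeq promoters of the GRCm38.p6 build, the 250 bases before the annotated start, read 5′ to 3′ on the strand of the gene. Capitals mark CCGCCC or its reverse complement GGGCGG, the letters reported as the binding element of the ARID domain of KDM5A. Gli1 and Lsp1 had no entry in the RefSeq set.
Timp4 (chr6:115252206-115252455, minus strand): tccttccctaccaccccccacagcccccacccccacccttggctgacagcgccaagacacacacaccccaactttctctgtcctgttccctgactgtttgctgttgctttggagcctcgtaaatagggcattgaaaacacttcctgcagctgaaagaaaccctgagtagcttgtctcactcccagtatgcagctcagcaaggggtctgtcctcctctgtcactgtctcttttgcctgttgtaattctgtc
Igfbp6 (chr15:102143936-102144185, plus strand): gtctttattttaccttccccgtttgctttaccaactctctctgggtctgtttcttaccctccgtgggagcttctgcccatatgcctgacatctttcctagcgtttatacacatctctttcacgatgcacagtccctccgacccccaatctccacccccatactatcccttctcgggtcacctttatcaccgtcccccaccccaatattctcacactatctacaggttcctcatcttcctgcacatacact
Draxin (chr4:148130699-148130948, minus strand): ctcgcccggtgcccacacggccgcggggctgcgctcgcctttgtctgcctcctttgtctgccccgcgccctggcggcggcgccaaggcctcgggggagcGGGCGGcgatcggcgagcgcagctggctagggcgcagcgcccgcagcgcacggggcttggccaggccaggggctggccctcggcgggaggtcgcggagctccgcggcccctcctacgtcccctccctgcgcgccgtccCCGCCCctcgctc
Col23a1 (chr11:51289670-51289919, plus strand): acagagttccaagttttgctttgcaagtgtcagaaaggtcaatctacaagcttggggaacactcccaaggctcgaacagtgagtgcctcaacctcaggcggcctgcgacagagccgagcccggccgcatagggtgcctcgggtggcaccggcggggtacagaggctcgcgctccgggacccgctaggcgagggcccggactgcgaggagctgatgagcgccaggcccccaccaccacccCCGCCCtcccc
Aqp1 (chr6:55336049-55336298, plus strand): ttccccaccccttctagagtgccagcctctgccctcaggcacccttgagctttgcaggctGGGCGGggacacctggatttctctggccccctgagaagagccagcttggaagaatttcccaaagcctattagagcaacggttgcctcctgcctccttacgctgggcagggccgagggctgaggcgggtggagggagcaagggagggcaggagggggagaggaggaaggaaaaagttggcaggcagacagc
Tor4a (chr2:25196814-25197063, minus strand): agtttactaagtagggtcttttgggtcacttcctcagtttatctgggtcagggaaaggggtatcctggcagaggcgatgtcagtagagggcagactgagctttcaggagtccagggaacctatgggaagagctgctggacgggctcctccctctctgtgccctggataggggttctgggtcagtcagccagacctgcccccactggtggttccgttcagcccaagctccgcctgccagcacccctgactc
Draxin carried these letters on both strands in a stretch with 39 CpG dinucleotides in its 300-base window (250 bases before to 50 after the start), and Col23a1 had 24 CpG and 1 match. Timp4, Igfbp6 and Tor4a had 2, 8 and 5 CpG and no match. Aqp1 had 8 CpG and 1 match. A match is a description of the letters and not a bound site.

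Of the 127 members, 90 had a promoter in the RefSeq set, and so had 9007 genes of the table. A CpG observed to expected ratio of 0.6 or more in the 300-base window, a usual mark of a CpG island, was found in 29 of the 90 member promoters (32.2%) and in 76.6% of all promoters. The median ratio was 0.432 in members and 0.787 over all promoters, with a median of 8 and 22 CpG dinucleotides. The GC content differed less, with medians of 57.8% and 61.3%. Among genes under 10 CPM the shares were 31.0% of members and 62.8% of the table, and among genes at 10 CPM or more they were 33.3% and 79.9%. Allowing any annotated start of a gene gave 35.6% and 80.1%.

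CCGCCC, searched on both strands, was in 48.9% of member promoters and 66.7% of all promoters. The TATA box letters TATAAA were in 17 member promoters (18.9%) and in 6.58% of all, and the AP-1 letters TGAGTCA were in 9 (10.0%) and in 3.15% of all. Those 9 were Ctla2a, Ecm1, Gfpt2, Mmp3, Mylk, P2ry10b, Tnxb, Tor4a and Ypel4. The E-box CACGTG of MAX and MGA was in 3.33% of member promoters (Adra2a, Tbkbp1 and Tle6) and in 10.5% of all, and the E2F letters TTCCCGC were in 5.56% and 8.97%. CCAAT was in 34.4% and 39.8%. The cyclic AMP response element TGACGTCA was in 0 member promoters and in 3.38% of all, and the GLI letters GACCACCCA were in 0 member promoters and 0.233% of all. No test was made on these shares, and no match in these windows says only that the letters are not there.

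**Figure D3:**
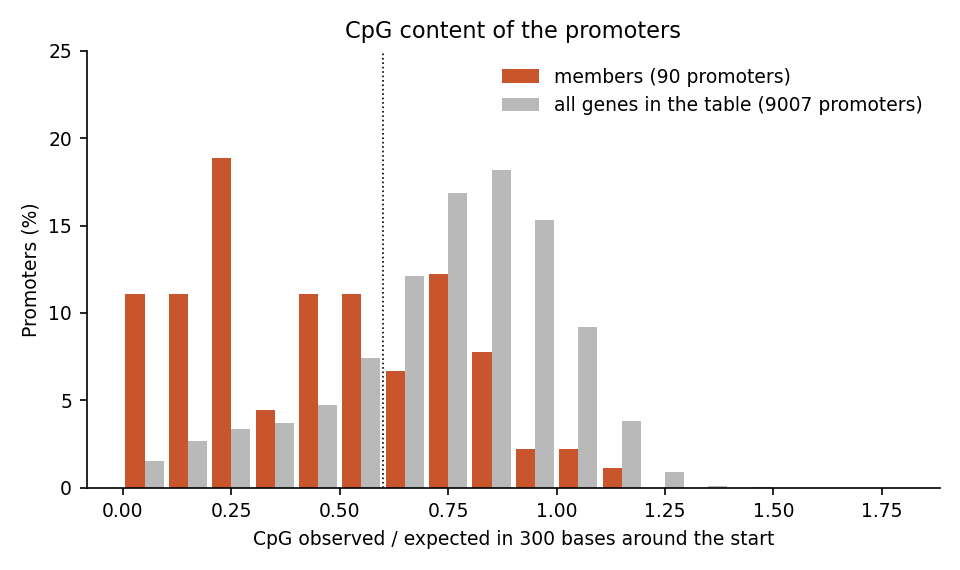
Distribution of the CpG observed to expected ratio over 300 bases around the RefSeq start for 90 member promoters and 9007 promoters of genes in the table, as percent of promoters per bin of 0.1. The dotted line marks 0.6, above which lie 32.2% of the member promoters and 76.6% of all promoters.

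The members were sorted by hand into 11 roles after their values had been seen. Beside Gli1, the role of Hedgehog transcription factors held Gli2, the main activator of the pathway, whose vehicle libraries were at 79.9, 87.2 and 82.3 CPM and C70 libraries at 119, 130, 121 and 122 CPM at day 0, a ratio of 1.48, with ratios of 1.53, 2.05 and 1.66 on days 1, 2 and 7. The pathway list, chosen after the values were seen, had 12 genes in the table, of which these 2 were members (16.7%, against 1.06% of all genes). Ptch1, the Hedgehog receptor and a standard target of the pathway, had ratios of 2.74, 1.47, 1.41 and 1.14, so it missed the rule at day 7. Ptch1 was between 27.4 and 29.4 CPM in vehicle and between 77.1 and 80.3 CPM with C70 at day 0, and the groups overlapped at day 7, from 23.5 to 34.7 CPM in vehicle and from 29.8 to 37.2 CPM with C70. Smo, the transducer of the pathway, had ratios between 1.01 and 1.247, and Gli3, mainly a repressor, had 0.942 at day 0 and 1.64 at day 7. At day 0, when Gli1 and Ptch1 were 13.5 and 2.74 times the vehicle level, the pathway's 12 genes had a median ratio of 1.01.

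Secreted growth factors, binding proteins and cues were 12 members with a median ratio of 3.53 at day 2. Beside Igfbp6 and Draxin they were Apod, Slit2, Hgf, Dkk3, Inhbb, Ccl9, Cxcl13, Igfbp3, Angpt4 and Fjx1. Apod, a lipocalin that carries small lipids, had the highest mean CPM of all members. It was at 228, 154 and 190 CPM in vehicle and 395, 360, 303 and 338 CPM with C70 at day 0, and at 46.2, 40.2 and 46.1 CPM in vehicle and 605, 631, 612 and 642 CPM with C70 at day 2, a ratio of 14.1 ± 0.665. With vehicle the level was lower at day 2 than at day 0, with C70 it was higher. Slit2, the ligand of Robo receptors, kept a ratio of 3.276 at day 7, with vehicle between 3.99 and 4.81 CPM and C70 between 10.4 and 17.1 CPM, and Hgf, hepatocyte growth factor, had its highest ratio at day 7, 2.65, with vehicle between 1.22 and 1.73 CPM and C70 between 3.21 and 5.05 CPM. Dkk3, a secreted protein of the Dickkopf family, went from a ratio of 1.41 at day 0 to 5.20 at day 2. Inhbb encodes the beta B subunit of activins and inhibins and had ratios from 1.47 to 2.35. Igfbp3, the main carrier of IGFs in blood, had ratios of 3.78, 6.22, 6.16 and 1.88. Of the chemokines, Ccl9 was between 2.06 and 4.26 times vehicle. Cxcl13, which attracts B cells, had 1 count in the 3 vehicle libraries and 5 counts in the 4 C70 libraries of day 0, a ratio of pooled counts of 3.82 with a 95% counting interval (exact, conditional binomial) from 0.427 to 180, so its membership at day 0 rests on 6 reads.

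Matrix proteins and matrix enzymes were 15 members with a median ratio of 4.48 at day 2 and 2.37 at day 7, the second highest day 7 median after the pair of Hedgehog factors. Ecm1, a secreted glycoprotein of the extracellular matrix, was at 282, 269 and 263 CPM in vehicle and 633, 559, 582 and 606 CPM with C70 at day 1, its highest day in both arms. Dpt, dermatopontin, which binds decorin and collagen fibrils, was at 31.2, 29.6 and 28.01 CPM in vehicle and 72.0, 59.7, 63.7 and 68.4 CPM with C70 at day 0, and at 38.3, 22.1, 23.3 and 27.7 CPM in vehicle and 104, 100.6, 102 and 111 CPM with C70 at day 7, where its ratio was 3.75 ± 0.505. Mmp3, stromelysin, had its highest ratio at day 7, 5.63 ± 1.63, on levels of 0.106, 0.159, 0.140 and 0.104 CPM in vehicle and 0.388, 0.478, 0.758 and 1.247 CPM with C70, that is 2 to 3 reads in a vehicle library. The latent TGF-beta binding protein Ltbp4 had ratios from 1.49 to 3.09 and the integrin-like Itgbl1 from 1.56 to 5.27. Cpxm1, a carboxypeptidase-like protein, and Adamtsl4, a matrix protein of the ADAMTS-like family, reached 5.36 and 4.19 at day 2. Clec3b, tetranectin, had ratios between 1.80 and 2.37. The remaining members of the role were Timp4, Col23a1, Lgi4, Spon2, Matn4, Tnxb and Smoc2. Of the 24 collagen genes of the table, 1 was a member (4.17%, against 1.06% of all genes), and the median ratio of the 24 was 1.08 at day 0 and 1.67 at day 7.

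Protease inhibitors, peptidases and acute phase proteins made a role of 11 members: Pi16, Xpnpep2, Serpina3n, Lbp, Pi15, Saa3, Ggt7, Ctla2a, Ctsc, Pltp and Ces2g. The last pair, a phospholipid transfer protein and a carboxylesterase, were sorted here although the name of the role does not cover them. Pi16, a surface protein that marks fibroblast progenitors, was at 15.1, 13.8 and 13.8 CPM in vehicle and 48.2, 52.0, 51.7 and 49.1 CPM with C70 at day 1. Serpina3n, a secreted serine protease inhibitor, was at 53.0, 45.5 and 41.5 CPM in vehicle and 115, 123, 107 and 111 CPM with C70 at day 1. Lbp, lipopolysaccharide-binding protein, was at 22.3, 18.3 and 17.4 CPM in vehicle and 63.2, 60.7, 63.2 and 59.6 CPM with C70 at the same time. In these 3 genes no C70 library overlapped with a vehicle library on any day. A list of 15 markers of Pi16-type adipose progenitors, chosen after the values were seen, had 11 genes in the table, and 6 of them were members (Igfbp6, Pi16, Clec3b, Dpt, Thy1 and Ly6a; 54.5%, against 1.06% of all genes), with a median ratio over the 11 of 1.80 at day 0 and 2.31 at day 2. Of the 5 others, Col15a1 had ratios of 1.32, 1.79, 1.67 and 1.70 and Anxa3 1.16, 1.44, 1.86 and 1.42. Cd55 had ratios of 1.63, 1.07, 1.28 and 1.64, Pdgfra 1.05, 1.00, 1.22 and 1.97, and Sema3c 1.21, 0.896, 1.08 and 1.599.

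Surface receptors and adhesion proteins were 20 members with a median ratio of 4.10 at day 2: Csf2rb, Thy1, Cd33, Ly6a, Sorcs2, Plvap, P2ry10b, Lrp4, Ramp2, Ephb6, Nptxr, Pcdh1, Msln, Cntnap1, Notch3, Efna3, Vipr1, Adra2a, Mdga1 and Mrgpre. Thy1, a GPI-anchored protein of fibroblasts, was at 257, 294 and 245 CPM in vehicle and 501, 483, 490 and 481 CPM with C70 at day 0, and at 12.8, 10.7 and 11.7 CPM in vehicle and 77.2, 77.2, 72.9 and 76.8 CPM with C70 at day 2. Ly6a, known as Sca-1, was at 37.2, 44.6 and 34.6 CPM in vehicle and 103, 95.8, 94.2 and 88.4 CPM with C70 at day 0, with ratios of 2.46, 3.89, 5.80 and 1.70. Both genes are markers of mesenchymal progenitors. Cd33, a sialic acid-binding lectin of myeloid cells, was at 30.2, 31.1 and 35.3 CPM in vehicle and 218, 190, 201 and 219 CPM with C70 at day 1, yet at 0.0522 to 0.233 CPM in vehicle and 0.144 to 0.478 CPM with C70 at day 7, where the groups overlapped. Csf2rb, the shared beta chain of cytokine receptors, had ratios from 2.14 to 7.83. Of 5 macrophage markers, Cd68, which is no member, was analysed here, and it was between 1.18 and 1.73 CPM in vehicle and between 19.1 and 20.05 CPM with C70 at day 0. It was higher in every C70 library than in every vehicle library also at day 1 (13.9 to 15.4 CPM against 1.85 to 2.17 CPM) and day 2 (6.48 to 7.11 CPM against 1.36 to 1.77 CPM), and at day 7 it was between 1.83 and 2.57 CPM in vehicle and 0.956 and 2.52 CPM with C70. Adgre1, Csf1r, Ptprc and Lyz2 were not in the table, and the filter that left its genes is not given. The part of other cells in these values was not tested. Notch3, a Notch receptor, had ratios between 1.48 and 1.87, the adrenergic receptor Adra2a between 1.46 and 2.26, and the protocadherin Pcdh1 between 1.497 and 2.05. The ephrin Efna3 reached 4.99 at day 2, and the kinase-dead receptor Ephb6 4.14 at day 2 and 3.90 at day 7. With Slit2 they made 3 members of 39 axon guidance genes in the table (7.69%), where the members made up 1.06% of all genes. This list, of the semaphorin, plexin, ephrin, netrin and slit families, leaves out the member Draxin.

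Cytoskeleton, cilium and membrane trafficking was the most frequent role, with 21 members and a median ratio of 2.87 at day 2. Crocc2 was at 6.05, 6.27 and 8.12 CPM in vehicle and 17.7, 21.4, 21.3 and 18.9 CPM with C70 at day 0. At day 2 it was at 10.9, 9.63 and 8.86 CPM in vehicle and 277, 292, 280 and 283 CPM with C70, a ratio of 28.9 ± 1.79, the highest of any member on any day. By day 7 it had a level of 0.528 ± 0.101 CPM (SD, n = 4) in vehicle and 1.03 ± 0.324 CPM with C70. It was the single member among 179 cilium and centriole genes (0.559%, against 1.06% of all genes), whose median ratio was 1.01 at day 2. Gas7, an F-BAR protein of actin assembly, was at 184, 191 and 193 CPM in vehicle and 256, 290, 285 and 273 CPM with C70 at day 0, and at 76.8, 78.9 and 68.1 CPM in vehicle and 218, 202, 219 and 217 CPM with C70 at day 2. Mylk, myosin light chain kinase, was at 127, 131 and 144 CPM in vehicle and 200, 222, 212 and 201 CPM with C70 at day 0, and its ratio was 2.96 at day 2 and 1.42 at day 7. Dnm3, a dynamin, had ratios of 4.01, 8.53, 11.5 and 1.752. The actin-binding LIM protein Ablim1, at the edge of the rule at day 0, reached 3.67 at day 2. The remaining members were Lsp1, Tor4a, Efr3b, Crip1, Nhs, Kdelr3, Actn3, Epb41l4a, Carmil3, S100a4, Hid1, Epb41l4b, Sybu, Synpo, Myo1h and Capg. Of 5 smooth muscle markers, 3 were in the table and none was a member. Tagln, transgelin, had ratios of 1.88, 5.07, 5.38 and 1.30. The median ratio of the 3 markers was 1.77, 2.75, 1.80 and 1.18, and 2 of the 3 were above 1 on all 4 days. The summed level of the 3 markers was higher in every C70 library than in every vehicle library on days 0, 1 and 2. It was between 529 and 647 CPM in vehicle and 676 and 760 CPM with C70 at day 0, between 7.26 and 9.37 CPM and 17.9 and 20.9 CPM at day 1, and between 5.61 and 5.77 CPM and 9.75 and 13.2 CPM at day 2. At day 7 the arms overlapped, at 44.5 to 62.8 CPM in vehicle and 44.8 to 48.4 CPM with C70. The part of this marker shift in the ratios of the members was not tested.

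Intracellular signalling proteins were 16 members: Ppef1, Irak3, Cracr2a, Usp11, Ifi205, Pde1b, Tmem158, Tbkbp1, Ptpn6, Fbxl16, Rassf2, Ndrg2, Rin1, Pid1, Rhov and Dusp3. Ppef1, a calcium-regulated protein phosphatase, was at 19.3, 21.1 and 18.1 CPM in vehicle and 41.5, 39.4, 37.3 and 37.7 CPM with C70 at day 0. At day 2 it was at 0.0455, 0.168 and 0.0524 CPM in vehicle, or 1, 4 and 1 reads, so its ratio of 18.3 has an SE of 8.55. Ptpn6, the phosphatase SHP-1, was 1 of the 5 members whose ratio was highest at day 0, at 2.10, 2.49 and 1.249 CPM in vehicle and 11.3, 10.3, 11.1 and 10.5 CPM with C70, and its ratio was 5.56, 3.04, 1.71 and 1.504 over the 4 days. Irak3, an inhibitor of Toll-like receptor signalling, reached 4.98 at day 2. Dusp3, a dual-specificity phosphatase, had ratios from 1.40008 to 2.36.

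Channels and transporters were 8 members, Aqp1, Slc7a2, Kcnn1, Kcnab2, Trpv2, Asic1, Slc10a6 and Slc2a13. The cation channel Trpv2 reached 5.78 at day 2, the calcium-activated potassium channel Kcnn1 4.34 and the cationic amino acid transporter Slc7a2 4.27. Slc10a6, a carrier of sulfated steroids, had ratios from 1.504 to 3.04, and Slc2a13, a carrier of myo-inositol, from 1.46 to 2.65. Metabolic and detoxifying enzymes were 11 members, with a median ratio of 2.43 at day 2: Akr1c14, Abat, Cyp2c55, Ugt1a6a, Ugt1a6b, Gfpt2, Sult1a1, Ddah1, Ggta1, Smpd5 and Phyhd1. Sult1a1, a sulfotransferase of phenols, was at 209, 158, 160 and 166 CPM in vehicle and 248, 256, 250 and 255 CPM with C70 at day 7, a ratio of 1.46. Akr1c14, a hydroxysteroid dehydrogenase, had ratios between 1.85 and 2.83, and the cytochrome P450 Cyp2c55 between 1.7498 and 4.42. Ugt1a6b and Ugt1a6a are glucuronosyltransferases that overlap on chr1:88103252-88219003 and chr1:88134809-88218997 and share exons, so the counting could split their reads and their separate values are uncertain. Other nuclear factors were 5 members, Tle6, Ahr, Trnp1, Aff3 and Foxs1. Ahr, the receptor of dioxins, was at 18.9, 26.2 and 20.7 CPM in vehicle and 36.9, 41.6, 43.5 and 39.3 CPM with C70 at day 0, with ratios of 1.84, 2.18, 1.77 and 2.06. The 6 members with no role were Fam198a, Gm15987, Gm15650, Ptprv, B230311B06Rik and Ypel4.

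Several lists held no member. One was the 372 genes with symbols of the Zfp, Zbtb, Zkscan and Zscan kind, a list drawn by symbol that leaves out other zinc finger genes such as the members Gli1 and Gli2. The others were the 39 homeobox and T-box factors, the 37 interferon-stimulated and antigen presentation genes (a list without the member Ifi205, an interferon-activated gene), the 24 histone genes, the 18 genes of H3K4 methyltransferase complexes, the 16 imprinted genes, the 11 genes of the E2F6 and PRC1.6 repressor, the 10 complement genes and the 10 glucocorticoid-responsive genes of the table. Since the members made up 1.06% of all genes, a count of 0 in the lists of 39 genes or fewer is near the share of the table. Germline genes are known to be repressed with the help of KDM5C, and the 2 of 30 that were in the table, Zcwpw1 and Tdrkh, had ratios between 0.85 and 1.29.

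In place of promoters known to bind KDM5, a list of 20 genes reported as KDM5 targets in other cells or in this study was used, all 20 in the table. None of them was a member, which in a list this short is near the 1.06% of all genes that were members, and 6 of the 20 had a ratio above 1 on all 4 days, where 1485 genes of the table (12.4%) had. Dlk1, the preadipocyte factor, had ratios of 1.11, 1.26, 1.96 and 1.70, so it missed the rule at day 0 and day 1. Ccnd1, cyclin D1, had 1.23, 1.52, 3.02 and 2.10, so it missed the rule at day 0. At these genes the study measured histone methylation and not the binding of KDM5. Klf4, a Krüppel-like factor, came closest, with 1.39, 1.67, 1.44 and 1.41. Wnt6, a Wnt ligand, had 0.852, 2.05, 4.09 and 2.78, and Brca1 had 0.839, 0.590, 0.497 and 1.24. The median ratio of the 20 genes was 1.02, 1.07, 1.08 and 1.14. The genes of the enzymes themselves were not members either: Kdm5a, Kdm5b and Kdm5c had ratios between 0.936 and 1.09 on all days.

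The course of the members in vehicle was a comparison the rule did not make, although vehicle means enter the rule as denominators, so it shares its libraries with the rule. Each day was compared with day 0 by edgeR's quasi-likelihood test, with calls at a Benjamini-Hochberg adjusted P under 0.05 over all 11959 genes and an absolute log2 fold change over 0.32. At day 1, 77 members were lower than at day 0 (60.6%, against 27.9% of all genes) and 34 were higher (26.8%, against 26.2%). At day 2, 92 were lower (72.4%, against 32.4%) and 24 higher (18.9%, against 33.4%). At day 7, 91 were lower (71.7%, against 36.7%) and 26 higher (20.5%, against 36.7%). The median log2 fold change of the members in vehicle was -0.71, -1.65 and -1.75 on days 1, 2 and 7, where that of all genes was between 0.01 and 0.02. Being lower on all 3 days was the pattern of 70 members (55.1%, against 19.2% of the table), and 12 were higher on all 3 (9.45%, against 18.3%).

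**Figure D4:**
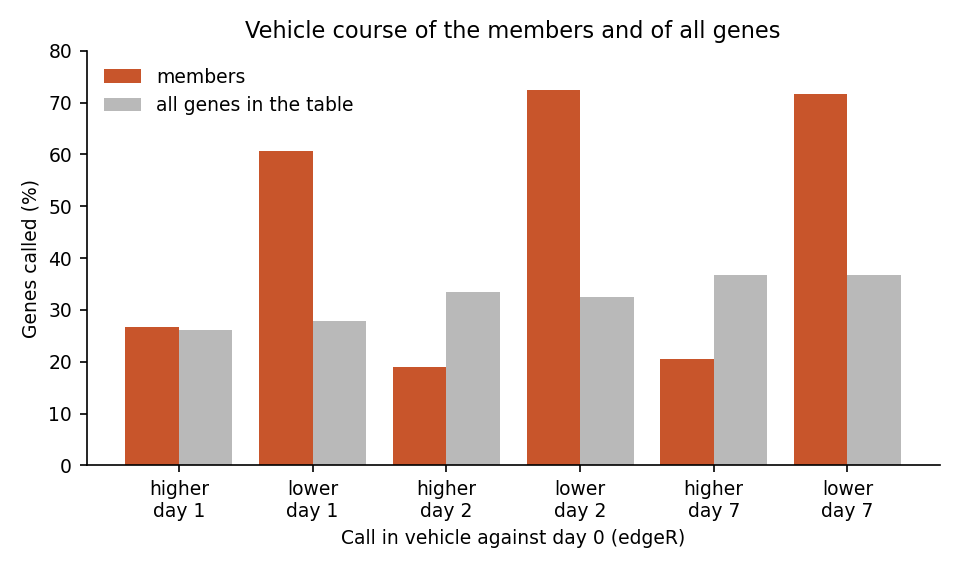
Percent of the 127 members (orange) and of all 11959 genes (grey) called higher or lower in vehicle at day 1, day 2 and day 7 than at day 0 by edgeR. At day 2 the lower call was made for 72.4% of the members and 32.4% of all genes.

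The 4 members with the largest fall in vehicle by day 7 were Ptprv, Mmp3, Cpxm1 and Dkk3. Ptprv, annotated as a processed transcript of a receptor-type phosphatase gene, was at 119, 118 and 122 CPM in vehicle at day 0, at 2.50, 2.36 and 1.68 CPM at day 2 and between 0.532 and 0.746 CPM at day 7, a log2 fold change of -7.40 ± 0.11 (SE), which edgeR's quasi-likelihood test gave an adjusted P of 4.1e-31. With C70 it was at 368, 389, 382 and 364 CPM at day 0 and between 0.777 and 1.73 CPM at day 7, so it was low in both arms by then. Mmp3 fell by 6.83 on the log2 scale by day 7, Cpxm1 fell by 5.28 and Dkk3 fell by 5.14. Cpxm1 was at 43.2, 34.3 and 40.0 CPM in vehicle at day 0 and between 0.653 and 1.01 CPM at day 7. Fibroblast genes were among those that fell: Thy1 had a log2 fold change of -2.35 ± 0.13 at day 1 and -4.47 ± 0.15 at day 2, and Ly6a -1.85 ± 0.14 at day 2. Of the leading members, Gli1 had -3.43 ± 0.29 at day 2 (edgeR's quasi-likelihood test, adjusted P = 4.0e-12), Aqp1 -3.17 ± 0.13, Lsp1 -2.97 ± 0.08 and Col23a1 -4.30 ± 0.13.

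The largest rises were those of Sult1a1, Cxcl13, Lbp and Serpina3n. Sult1a1 was at 0.462, 0.324 and 0.673 CPM in vehicle at day 0 and at 34.3, 34.9 and 35.1 CPM at day 2, and its log2 fold change at day 7 was 8.59 ± 0.16 (edgeR's quasi-likelihood test, adjusted P = 9.1e-29). Cxcl13 was at 1 count in all at day 0 and at 357, 409 and 374 counts in the vehicle libraries of day 2, a ratio of pooled counts of 1110 with a counting interval from 199 to 43868. Lbp was at 0.798, 0.757 and 0.480 CPM in vehicle at day 0 and between 12.04 and 15.7 CPM at day 7, a log2 fold change of 4.43 ± 0.18, and Serpina3n was at 5.17, 5.13 and 5.43 CPM at day 0 and between 80.02 and 103 CPM at day 7, a log2 fold change of 4.28 ± 0.10. Timp4 fell at day 1 and rose by day 7 to a log2 fold change of 2.76 ± 0.21. Clec3b also rose by day 7, by 2.25 ± 0.23. Crocc2, Cd33 and Draxin were higher at day 1 and day 2 than at day 0 and lower at day 7, with log2 fold changes of 2.29, 0.56 and -3.54 for Crocc2, 3.49, 2.21 and -3.99 for Cd33, and 1.82, 0.86 and -1.41 for Draxin.

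By role, the calls at day 7, which over all genes were lower for 36.7% and higher for 36.7%, were lower for 19 of 21 cytoskeleton members, 13 of 16 signalling members, 10 of 12 secreted factors, 14 of 20 surface proteins, 10 of 15 matrix members, all 5 other nuclear factors, both Hedgehog factors and 5 of 6 members with another role or none. They were split in the channels and transporters (3 lower, 3 higher and 2 with no call of 8), in the protease inhibitors and acute phase proteins (5 lower, with Pltp, and 5 higher, with Ces2g, of 11), and in the metabolic enzymes (5 lower and 5 higher of 11).

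Over the whole course the members ended lower in both arms. From day 0 to day 7, 99 members had a lower mean with vehicle and 98 a lower mean with C70, and the median ratio of day 7 to day 0 was 0.266 with vehicle and 0.274 with C70, where all genes had medians of 0.910 and 0.889. At day 1 the C70 mean was above the day 0 vehicle mean in 89 members and the vehicle mean in 45, and at day 2 these numbers were 76 and 27. At day 7 they were 44 and 28. The rule puts the C70 mean above the vehicle mean on every day, so it also sets the order of these counts. No share over all genes stands beside them, and nothing is read from them. The mean of log2(CPM + 0.5) over the members was between 3.29 and 3.33 in the vehicle libraries of day 0 and between 2.17 and 2.19 at day 2, while with C70 it was between 4.12 and 4.17 at day 0 and between 3.79 and 3.82 at day 2. At day 7 it was between 1.78 and 1.99 with vehicle and 2.64 and 2.79 with C70.

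**Figure D5:**
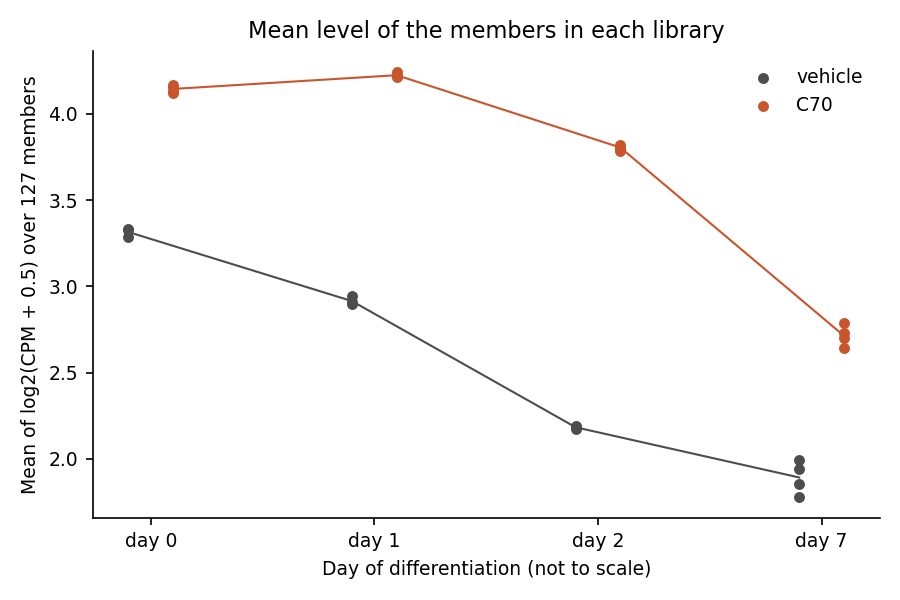
Mean of log2(CPM + 0.5) over the 127 members in each of the 29 libraries, by day, with lines through the group means. The C70 libraries (orange) stay between 4.12 and 4.24 up to day 1, while the vehicle libraries (grey) decline from day 0 on, and both arms are lowest at day 7.

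The members were spread over the genome (GRCm38). They made up 0.449% to 2.17% of the measured genes of each autosome, with 15 of 952 on chromosome 2 and 10 of 460 on chromosome 15, and 5 of 383 on the X chromosome. Members next to each other among the measured genes were Ugt1a6a with Ugt1a6b, Gli2 with Inhbb (361846 bases apart on chromosome 1), Adamtsl4 with Ecm1 (46230 bases apart on chromosome 3) and Clec3b with Tmem158 (101621 bases apart on chromosome 9). By annotation 123 were protein coding, 2 antisense, 1 a lincRNA and 1 a processed transcript. A gene on the opposite strand overlapped 53 members and a gene on the same strand 25. Since the counting is not stated to use strand, reads of Timp4 and Syn2, of Draxin and Mad2l2, of Sult1a1 and Sgf29, and of the other overlapping pairs could be mixed.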

How the data were processed

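RNA-seq libraries of 3T3-L1 cells treated with C70 or vehicle were measured on days 0, 1, 2 and 7. The authors deposited whole-number counts per gene and library, with no normalization in the values although the table is named as normalized. Reads were aligned by the authors with STAR 2.7.2a to GRCm38, and the submitters' processing notes name edgeR 3.26.8. The counting program, its strand setting and the filter that left 11959 genes are not given in the sources used here. CPM were computed here from column totals. The vehicle course was tested with edgeR 4.0.16 (R 4.3.3) on counts, with TMM normalization, all 8 groups in 1 fit and quasi-likelihood F tests. Promoters came from RefSeq (GRCm38.p6), and gene models from GENCODE M21, which held 11953 of the 11959 identifiers. On simulated counts with 200 of 11959 genes changed 2-fold at vehicle day 7 and the others unchanged, 191 (95.5%) were called, with 2 false calls. In the measured data far more genes were called at day 7 (36.7% higher and 36.7% lower). The simulated shares therefore need not hold for the measured calls.

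Members and lists were chosen with earlier results of these data known. Named members were the 8 with the highest lowest ratio, the 6 with the highest mean CPM, those that rose most (4) or fell most (4) in vehicle, up to 3 members of each list, those at the threshold and neighbours in the genome. Other names, the roles and the Hedgehog and Pi16 progenitor lists were chosen after the values were seen. Ratio errors were propagated from the SD of both groups. Alternatives changed the scaling, the thresholds, the filter, the test (limma 3.58.1, DESeq2 1.42.0), the libraries and the replicate block. The results of 1 gene and 1 gene list are not reported here.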

Additional observations from a re-analysis of the deposited data

Results flagged for a closer look

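The highest or lowest library was compared with the gap to its neighbours in groups of 4 libraries for the named members (Dixon's ratio at the 95% level). Chance flags about 1 in 20 groups, or 13.25 of the 265 groups tested, and 18 were found. 4 of them were in the first vehicle library of day 7, where Igfbp6 was at 5.27 CPM (others 2.02 to 2.35), Sult1a1 at 208.5 CPM (others 157.8 to 166.1), Ephb6 at 1.28 CPM (others 0.425 to 0.522) and Slc2a13 at 3.73 CPM (others 5.97 to 6.37). In other vehicle libraries of day 7, Tor4a was at 1.93 CPM and Mrgpre at 2.04 CPM in the fourth, and Cpxm1 at 0.653 CPM in the third, each below the other 3 libraries.

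In the second C70 library of day 2, Timp4 was at 6.58 CPM (others 3.49 to 3.70), Gas7 at 202.2 CPM (others 217.4 to 218.9) and Lbp at 23.5 CPM (others 18.7 to 19.2). Elsewhere among the C70 libraries of day 2, Thy1 was at 72.9 CPM in the third, Kcnn1 at 2.71 CPM in the fourth and Clec3b at 1.58 CPM in the first, each below the others. Apod was at 469.6 CPM in the second C70 library of day 1, below the others (540.9 to 553.9). Ugt1a6b was at 7.61 CPM in the third C70 library of day 0, above the others. At day 7 with C70, Slc7a2 was at 6.09 CPM and Slc10a6 at 5.23 CPM in the fourth library, the first below and the second above the others, and Ugt1a6a was at 3.41 CPM in the third, above the others. The cause was not tested.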

How the results depend on the processing

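The number of members depended on the ratio threshold. It was 237 at the lowest threshold tried (log2 of 0.32), 80 at 1.5 and 15 at 2, against 127 at 1.4. TMM library sizes gave 158 members and DESeq2 size factors 159, both including all 127. Under TMM, ratios shifted by 0.03, 0.06, -0.0013 and 0.06 (log2) on days 0, 1, 2 and 7. The shift under DESeq2 size factors is not given here. Medians of replicates gave 133 (115 shared), and adding 0.5 CPM to both means 99. Leaving out 1 library at a time gave between 121 and 140 members, and 91 of the 127 were members each time. In vehicle, leaving out 1 library gave 33 to 36 members higher and 71 to 77 lower at day 1, 23 to 25 higher and 90 to 92 lower at day 2, and 25 to 27 higher and 91 to 93 lower at day 7. With a replicate block there were 34 higher and 74 lower at day 1, 24 higher and 92 lower at day 2, and 26 higher and 91 lower at day 7. Same-numbered vehicle libraries of day 0 and of the later days correlated with r between -0.13 and 0.18, after group means were removed. The C70 libraries were not compared in this way, so whether the numbers pair the libraries was not settled. All counts of vehicle calls stayed within 1.5 times the reported ones, with lower calls between 59 and 93 and higher calls between 20 and 36 over the 3 days and all alternatives. For the 52 members named by a rule there were 156 log2 fold changes. None with a call, in the main run or in the alternative, turned direction under any alternative run. Changes of sign without a call in either run were not counted. Of 5436 alternative values, 33 lost their call while 15 gained one. The log2 fold changes of Cd33 were not among the 156.

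Low levels limit the ratios of day 7, where 36 members had a vehicle mean under 1 CPM, and those of Cxcl13 at day 0 and Ppef1 at day 2, which rest on single reads.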

Other observations

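Of the 8 genes that met the ratio rule on all 4 days but had a mean under 2 CPM, Rasgrp2, a guanine nucleotide exchange factor for Ras-type GTPases, had the highest lowest ratio, with values of 3.45, 2.73, 2.48 and 2.75. Cd38, an NAD hydrolase of the cell surface, had 1.43, 2.45, 2.34 and 2.23, and Fhl1, a LIM domain protein, had 1.66, 2.91, 1.70 and 1.82. The other 5 were Gm29100, Gm12963, Gm28809, Camsap3 and Slc16a6. These values were picked after they were seen and no test was made.

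Among all members, 74 had their highest vehicle level at day 0 (58.3%, against 34.7% of all genes) and 34 at day 1 (26.8%, against 20.9%). With C70 these numbers were 63 (49.6%, against 34.7%) and 42 (33.1%, against 19.3%). The lowest level was at day 7 for 64 members with vehicle (50.4%, against 41.6%) and for 87 with C70 (68.5%, against 45.8%). These shares were not tested.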
